A study of Mus musculus with 10 samples.

Results

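The high-fat and the low-fat diet were compared in the inguinal mammary fat pads of mice that lack Fap, the gene of fibroblast activation protein. The comparison uses 6 of the 10 RNA libraries of the series, chosen by their labels as FAP-/- animals, with 3 on the low-fat diet (Null_LFD, 10% of calories from fat) and 3 on the high-fat diet (Null_HFD, 60%). All animals were female FVB mice that ate their diet between 12 and 30 weeks of age, and the diets matched in their ingredients. The other 4 libraries are wild-type pads, 2 on each diet, and were used for the spread between replicates and to compare the diet difference between the genotypes. The series calls its samples biological replicates. How the Fap allele was made, whether animals shared a litter or cage, and what the animals weighed are not stated in the labels. Of 30319 genes with a symbol, 16211 reached 1 TPM (a transcript level scaled for length and for the library's total) in at least 2 of the 6 null libraries and were tested.

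The mammary fat pad is white adipose tissue that surrounds a branched epithelial tree and encloses a lymph node, so a whole pad holds RNA from fat cells, epithelium, vessels, immune cells and sometimes adjoining muscle. White fat cells store triglyceride, secrete leptin in proportion to their fat stores and can build fatty acids from sugar by de novo lipogenesis, a pathway that dietary fat usually dampens. Fibroblast activation protein is a membrane serine protease of activated fibroblasts that cleaves collagen fragments and some peptide hormones. In a whole pad, fewer cells of a type and less RNA per cell cannot be told apart.

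Fap itself measured 18.4, 22.4 and 18.3 TPM on the low-fat and 26.7, 38.4 and 22.3 TPM on the high-fat diet. The means were 19.7 ± 2.31 TPM (SD, n = 3) and 29.1 ± 8.32 TPM (SD, n = 3), the lowest high-fat library lay just below the highest low-fat library, and the difference of 0.51 on the log2(TPM + 1) scale (SE 0.27) did not pass (limma adjusted p = 0.746). As a single value it had an exact two-sided permutation p of 0.2, where 3 against 3 libraries can give no less than 0.1. Transcript was thus present in every library labelled null, and in wild-type pads it measured 45.4 and 39.2 TPM on the low-fat and 68.8 and 37.7 TPM on the high-fat diet. The part of the gene that is disrupted is not stated in the labels, so the gene's TPM is only a partial check of the labels.

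The library labelled Null_HFD 3 stood apart from the other 5 null libraries. On the component that separated the null libraries most it lay at 109, against -31.5 to -16.6 for the others, and its median correlation with the other libraries across genes was 0.854, against 0.925 to 0.950. Its summed B cell markers came to 2397 TPM (40.5 to 165 in the others), its T cell markers to 2356 TPM (35.0 to 65.3) and its lymph node stroma markers to 3678 TPM (222 to 589). Its skeletal muscle markers summed to 251 TPM (4290.1 to 14307), its mature adipocyte markers to 19865 TPM (28704 to 56698) and its luminal epithelial markers to 572 TPM (1628 to 8605). Null_LFD 3 had the highest cell cycle genes, with a summed level of 1323 TPM against 133 to 425 TPM in the other 5. Values without Null_HFD 3 are therefore given beside those with it, and the part of tissue content in any difference below was not tested.

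**Figure D1:**
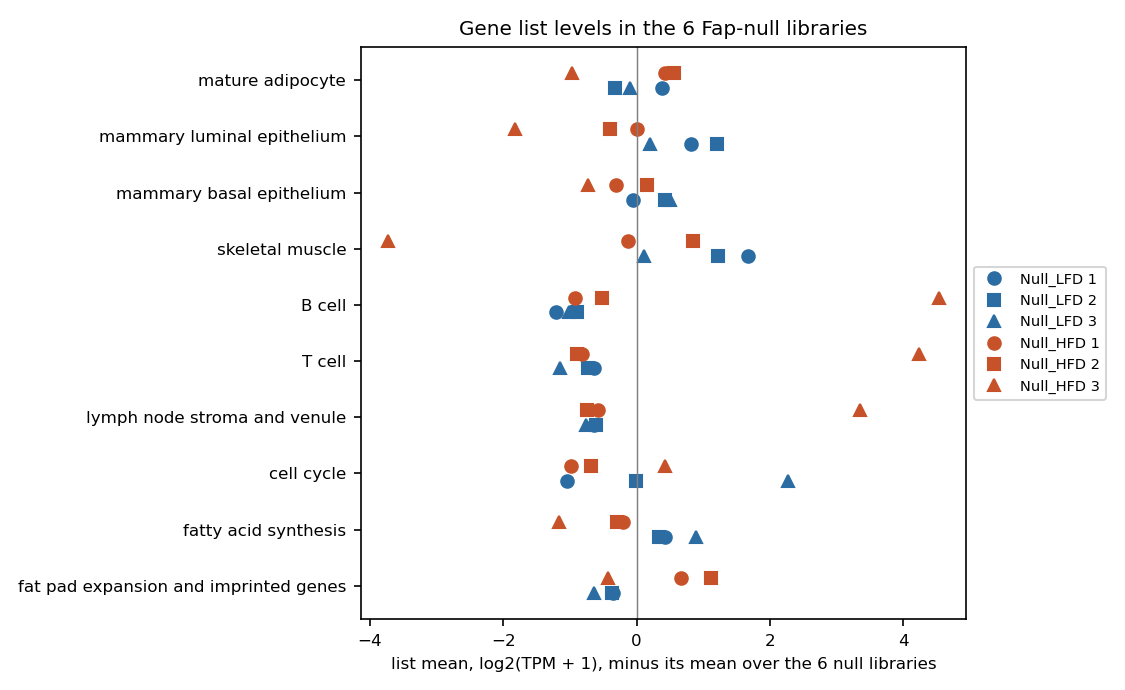
Mean level of 10 gene lists in each of the 6 Fap-null libraries, as log2(TPM + 1) minus the mean over the 6 libraries (low-fat in blue, high-fat in red, symbols mark the replicate). Null_HFD 3 lies at 4.53 for B cell genes and -3.72 for skeletal muscle genes, and Null_LFD 3 at 2.28 for cell cycle genes.

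Adipocyte-derived leptin and a set of genes that mark growing fat pads lay higher on the high-fat diet, while fatty acid synthesis genes and mammary epithelial genes lay lower. No gene of these groups passed the test over all genes. limma called 0 of 16211 genes higher (0%) and 1 lower (0.00617%) at an adjusted p of at most 0.05. Before adjustment, 604 genes (3.73%) lay higher and 533 (3.29%) lower with a limma p under 0.05. The 3 high-fat libraries all lay above the 3 low-fat ones for 1094 genes (6.75%) and all below for 733 (4.52%). Without Null_HFD 3, limma called 0 genes in either direction, 876 lay higher (5.4%) and 352 lower (2.17%) before adjustment, the difference was above 0 for 53% and below 0 for 47%, and 2318 (14.3%) and 1428 (8.81%) did not overlap. The median difference over all genes was 0.04, and 0.03 without Null_HFD 3. The lists below are described by counts and medians, and these shares of all genes are the background for each.

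The 1 gene that fell was Gm18588, a processed pseudogene on chromosome 3, minus strand, from 68902267 to 68902758 (GENCODE M21, GRCm38). It measured 21.1, 37.3 and 25.6 TPM on the low-fat and 0, 0 and 0.521 TPM on the high-fat diet, so that 2 of the 3 high-fat libraries listed it at 0 (difference -4.62, SE 0.44, adjusted p = 0.0317). Pseudogenes share reads with near-identical copies, so the value is uncertain, and in wild-type pads it measured 14.9 and 26.1 TPM on the low-fat and 15 and 48.5 TPM on the high-fat diet. It lost the call when any 1 of the 6 null libraries was left out, with adjusted p values from 0.0722 to 0.318.

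The promoters of Lep, Mest and Fasn are shown because the diet groups of these genes, a hormone, a marker of fat pad growth and the central enzyme of fatty acid synthesis, did not overlap. Each runs from 250 bases before the start site to 30 bases from it, 5′ to 3′ on the gene's strand, after RefSeq (GRCm38.p6), in lower case with matches to the motifs TATAA (the TATA box), CCAAT (the CCAAT box), TTGCGCAA (a C/EBP site) and CACGTG (an E-box) on either strand in capitals.
Lep promoter, chr6:29059971-29060250, plus strand: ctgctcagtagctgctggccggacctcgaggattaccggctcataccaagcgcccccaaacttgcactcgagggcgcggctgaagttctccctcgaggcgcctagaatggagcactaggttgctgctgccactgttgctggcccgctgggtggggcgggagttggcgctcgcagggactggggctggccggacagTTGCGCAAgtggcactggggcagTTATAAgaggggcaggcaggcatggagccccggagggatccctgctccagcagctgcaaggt
Mest promoter, chr6:30737800-30738079, plus strand, the second by position of 3 starts listed: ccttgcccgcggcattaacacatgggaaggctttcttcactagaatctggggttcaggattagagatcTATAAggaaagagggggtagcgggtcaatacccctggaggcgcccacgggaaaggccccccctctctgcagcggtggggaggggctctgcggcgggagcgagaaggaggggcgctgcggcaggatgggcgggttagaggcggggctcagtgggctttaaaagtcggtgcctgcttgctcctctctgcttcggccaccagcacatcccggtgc
Fasn promoter, chr11:120824518-120824797, minus strand: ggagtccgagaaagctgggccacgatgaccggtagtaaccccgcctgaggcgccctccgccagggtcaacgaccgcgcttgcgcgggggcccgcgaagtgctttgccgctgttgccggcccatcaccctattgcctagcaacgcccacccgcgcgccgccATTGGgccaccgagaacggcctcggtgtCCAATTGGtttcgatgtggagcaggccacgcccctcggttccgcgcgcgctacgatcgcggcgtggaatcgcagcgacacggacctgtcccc
The Lep window holds TTGCGCAA 55 bases before the start, a word found in 0.18% of 32851 promoter windows of this length. It also holds TATAA on both strands, overlapping, 32 and 31 bases before the start, and TATAA occurs in 24% of all windows. The Mest window holds TATAA 182 bases before the start. The Fasn window holds CCAAT 90, 62 and 59 bases before the start, the last pair overlapping on opposite strands, and 36.1% of windows hold that word. CACGTG was in none of the 3 windows and in 6.79% of all. A match describes the letters only.

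Lep, which encodes leptin, was the adipokine with the clearest separation. It measured 133, 342 and 346 TPM on the low-fat and 990.4, 1492 and 1192 TPM on the high-fat diet, so the lowest high-fat library lay well above the highest low-fat one. The means were 274 ± 122 TPM (SD, n = 3) and 1225 ± 253 TPM (SD, n = 3), a ratio of 4.47. The log2 difference was 2.26 (SE 0.48, limma adjusted p = 0.664), and 2.27 without Null_HFD 3, which carried as much Lep as the other high-fat pads although its adipocyte markers were the lowest. Other adipokine genes did not separate the diets. Of 12 adipokine genes tested 4 lay higher and 8 lower (54.8% of all genes lay higher), with a median of -0.09. Only Lep did not overlap between the diets (6.75% of all genes did so in this direction). Adipoq, which encodes adiponectin, measured 2589.8, 1696 and 2091 TPM on the low-fat and 3121, 2395 and 752 TPM on the high-fat diet, and Retn, which encodes resistin, 439.7, 222 and 483 TPM on the low-fat and 421, 538 and 188 TPM on the high-fat diet. In both, Null_HFD 3 was the lowest of the 6. Without that library the median of the 12 was 0.37 and all 12 lay higher (53% of all genes).

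Mest, on chromosome 6, an imprinted gene of the alpha/beta hydrolase fold family whose level in mouse fat tracks the expansion of the pad, led the higher genes after Supt5. It measured 22.3, 32.7 and 18.8 TPM on the low-fat and 108, 260.2 and 106 TPM on the high-fat diet, so every high-fat library lay well above every low-fat one. The means were 24.6 ± 7.23 TPM and 158 ± 88.5 TPM (SD, n = 3 each), a ratio of 6.41, with a log2 difference of 2.54 (SE 0.41, adjusted p = 0.372, 2.76 without Null_HFD 3). Sfrp5, a secreted inhibitor of Wnt signals made by fat cells, measured 4.41, 5.26 and 3.4 TPM on the low-fat and 49.1, 96.8 and 31.2 TPM on the high-fat diet. That is a ratio of 13.6 between the means (difference 3.35, SE 0.85, adjusted p = 0.664). Npr3, the clearance receptor for natriuretic peptides, measured 82.3, 151 and 226 TPM on the low-fat and 507, 608 and 269 TPM on the high-fat diet (1.62, SE 0.41), and Bmp3, a bone morphogenetic protein, 16.5, 17.2 and 17.8 TPM on the low-fat and 37.6, 68 and 27 TPM on the high-fat diet (1.21, SE 0.34). Trp53inp2, a gene of autophagy, measured 36.6, 50.2 and 30.3 TPM on the low-fat and 60.5, 116 and 74.2 TPM on the high-fat diet (1.06, SE 0.26). None of these 5 overlapped between the diets, and within the high-fat diet Null_HFD 2 was the highest in each.

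The 5 belong to a list of 17 genes of fat pad expansion and imprinted genes, of which 14 were tested. In that list 10 lay higher and 4 lower, 5 did not overlap (6.75% of all genes did so in this direction), and the median was 0.90. Without Null_HFD 3 the median was 1.42, 13 of 14 lay higher (53% of all genes) and 10 did not overlap (14.3%), while without Null_HFD 2 the median was 0.52. The differences of other members depended more on Null_HFD 3. Peg3, an imprinted zinc finger gene, measured 107, 49.5 and 13.5 TPM on the low-fat and 165, 188 and 28.5 TPM on the high-fat diet, and Nnat, which encodes the imprinted proteolipid neuronatin, 813, 566 and 491 TPM on the low-fat and 1997, 2136 and 539 TPM on the high-fat diet. Both were highest in Null_HFD 1 and 2, with Null_HFD 3 within the low-fat range. Igf2, the imprinted growth factor, measured 4.16, 8.47 and 4.89 TPM on the low-fat and 7.04, 10.2 and 5.26 TPM on the high-fat diet, with overlapping groups, and Cdkn1c, an imprinted inhibitor of cell division, 28.9, 22.4 and 21.4 TPM on the low-fat and 26.1, 19.2 and 7.45 TPM on the high-fat diet.

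**Figure D2:**
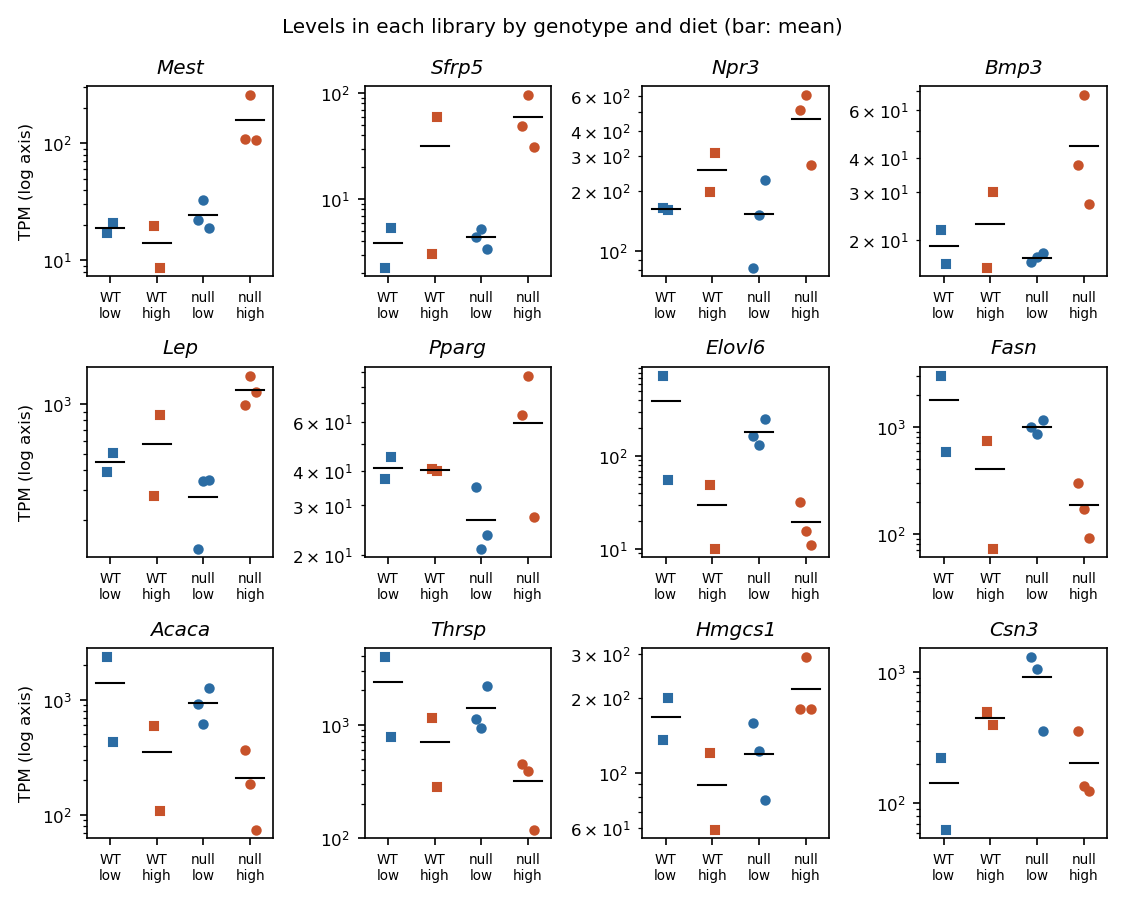
Level in TPM (log axes that do not start at 0) of 12 genes in each library, by genotype and diet, with a bar at each group's mean (2 wild-type and 3 null libraries per diet). In null pads the diet groups of Mest, Sfrp5, Npr3, Bmp3, Lep, Elovl6, Fasn, Acaca, Thrsp, Hmgcs1 and Csn3 do not overlap, while those of Pparg do.

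The other leading higher genes were of mixed function. Ret, a receptor tyrosine kinase for glial cell line-derived ligands, measured 2.37, 3.78 and 3.19 TPM on the low-fat and 10.5, 21.4 and 13.7 TPM on the high-fat diet (difference 1.94, SE 0.33, adjusted p = 0.424). Inpp5b, an inositol polyphosphate 5-phosphatase, measured 8.96, 9.09 and 10.8 TPM on the low-fat and 24.8, 29.8 and 21 TPM on the high-fat diet (difference 1.29, SE 0.21, adjusted p = 0.399), and Mycbp2, a ubiquitin ligase, 52, 65.3 and 60.3 TPM on the low-fat and 131, 213 and 135 TPM on the high-fat diet. In each the 3 high-fat pads lay apart from the low-fat pads. Myl4, a myosin light chain of atrial and embryonic muscle, measured 5.26, 7.74 and 10.1 TPM on the low-fat and 17.5, 34.9 and 25.5 TPM on the high-fat diet, opposite in direction to the skeletal muscle markers. Ubd, an interferon-inducible ubiquitin-like modifier, measured 11.1, 5.14 and 3.82 TPM on the low-fat and 15.1, 47.1 and 40.4 TPM on the high-fat diet, and Wfdc21, a secreted protein with a whey acidic protein domain, 18.9, 21.4 and 16.8 TPM on the low-fat and 78.1, 78.3 and 41.5 TPM on the high-fat diet. Cfb, complement factor B, measured 49.6, 44 and 57 TPM on the low-fat and 105, 121 and 173 TPM on the high-fat diet. The adjusted p of these 7 genes lay between 0.399 and 0.664. Supt5, a transcription elongation factor that every cell uses, was listed at no more than 0.278 TPM on the low-fat diet and at 18.8, 7.79 and 26 TPM on the high-fat diet (difference 3.94, SE 0.48, adjusted p = 0.0831). A level near 0 for a gene of that kind can be a failed estimate, and no fold is given.

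**Figure D3:**
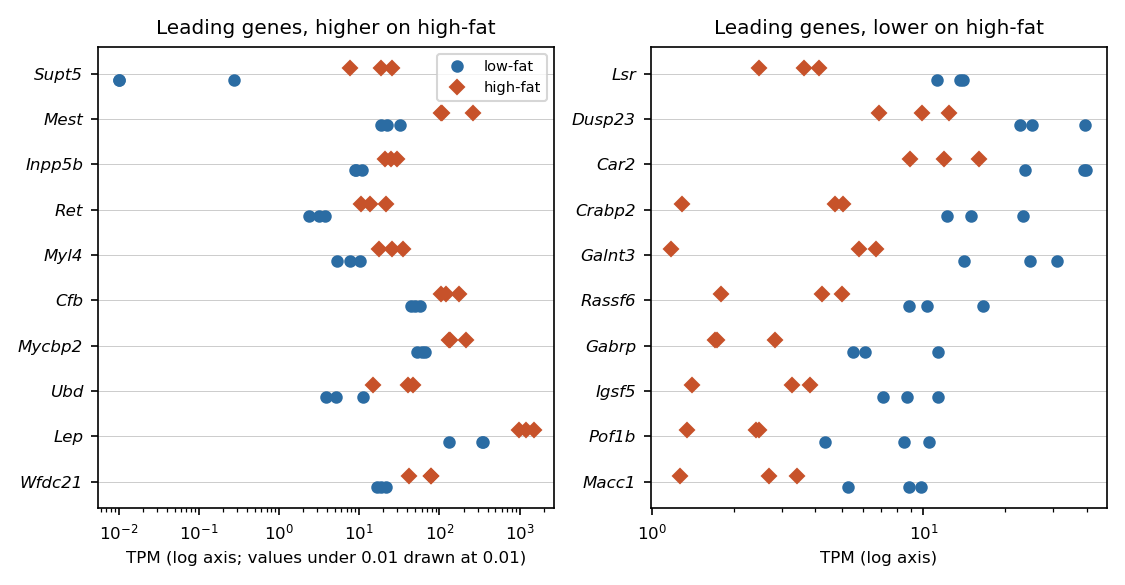
TPM (log axes) in each low-fat (blue) and high-fat (red) Fap-null library of the 10 leading genes in each direction, chosen by smallest p among genes whose groups do not overlap. Lep spans 133 to 346 TPM against 990.4 to 1492 TPM, and Lsr 11.3 to 14.0 TPM against 2.47 to 4.13 TPM.

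Genes of fatty acid synthesis lay lower on the high-fat diet. Elovl6, which lengthens saturated fatty acids, measured 166, 131 and 252 TPM on the low-fat and 31.6, 15.5 and 11 TPM on the high-fat diet, a ratio of 0.106 between the means (difference -3.25, SE 0.90, adjusted p = 0.664). Fasn, fatty acid synthase, measured 988, 863 and 1158 TPM on the low-fat and 297, 171 and 92 TPM on the high-fat diet, a ratio of 0.186 (difference -2.57, SE 0.86, adjusted p = 0.68). In both every high-fat library lay far below every low-fat one, and Null_HFD 3 was the lowest. Acaca, acetyl-CoA carboxylase, which makes the malonyl-CoA that Fasn uses, measured 917, 621 and 1266 TPM on the low-fat and 364, 184 and 74.3 TPM on the high-fat diet (-2.38, SE 0.83). Thrsp, a lipogenic nuclear protein, measured 1115, 929.8 and 2191 TPM on the low-fat and 449.9, 390.1 and 118 TPM on the high-fat diet (-2.25, SE 0.78). Acly, which supplies cytosolic acetyl-CoA from citrate, measured 225, 312 and 1151 TPM on the low-fat and 106, 124 and 108 TPM on the high-fat diet, with Null_LFD 3 well above all others. Me1 and Tkt, enzymes that feed NADPH and sugar phosphates into the pathway, differed by -1.85 (SE 0.75) and -2.08 (SE 0.79).

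Over the 22 genes of the list, 20 lay lower (45.2% of all genes), 10 did not overlap between the diets (4.52% of all genes in this direction), and 8 had an unadjusted limma p under 0.05 (3.29%). The 10 were Elovl6, Fasn, Thrsp, Acaca, Tkt, Me1, Acss2, Fads2, Slc25a1 and Acly. The median difference was -0.89. It was -0.37 without Null_HFD 3, with 17 lower (47% of all genes), 10 not overlapping (8.81%) and 2 with an unadjusted p under 0.05 (2.17%), and between -1.17 and -0.84 when any other single null library was left out. Elovl6 and Fasn still differed by -2.94 and -2.14 without Null_HFD 3. The groups of the transcription factors of this pathway overlapped. Srebf1, the sterol-regulated factor that drives lipogenic genes, measured 243, 171 and 159.6 TPM on the low-fat and 182, 287 and 94.9 TPM on the high-fat diet, and Mlxipl, the carbohydrate-responsive factor ChREBP, 28.3, 29.2 and 31.4 TPM on the low-fat and 52.7, 41.3 and 10.9 TPM on the high-fat diet. Scd1, the main desaturase of fat, measured 19102, 15092 and 15904 TPM on the low-fat and 16666, 10728 and 4431 TPM on the high-fat diet, with overlapping groups.

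Cholesterol synthesis genes, which share sterol regulation with that pathway, did not lie lower in null pads. Of 20 tested, 14 lay higher (54.8% of all genes), 1 did not overlap (6.75%), and the median was 0.17. It was 0.06 without Null_HFD 3, where 11 lay higher, and 0.01 without Null_HFD 2. The 1 was Hmgcs1, which makes HMG-CoA for the mevalonate route, at 158, 122 and 77.8 TPM on the low-fat and 179.9, 293 and 180.1 TPM on the high-fat diet (difference 0.88, SE 0.35, adjusted p = 0.68).

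Markers of mature fat cells split by library. Pparg, the master regulator of fat cell differentiation, measured 35.1, 21 and 23.5 TPM on the low-fat and 63.3, 87.7 and 27.2 TPM on the high-fat diet, and Plin4, a lipid droplet coat protein, 628, 652 and 433 TPM on the low-fat and 1577, 1586 and 439.9 TPM on the high-fat diet. Lipe, hormone-sensitive lipase, measured 265, 169 and 218 TPM on the low-fat and 344, 438 and 201 TPM on the high-fat diet. In all 3 genes Null_HFD 1 and 2 lay above every low-fat pad and Null_HFD 3 among them. Of 24 mature adipocyte genes 15 lay higher (54.8% of all genes) and 0 were free of overlap (6.75% of all genes higher and 4.52% lower), with a median of 0.13. Without Null_HFD 3, 21 lay higher (53% of all genes) and 11 did not overlap (14.3%), with a median of 0.50, against -0.20 without Null_HFD 2. Without Null_HFD 3 the differences of Pparg, Plin4 and Lipe were 1.49, 1.49 and 0.86, against 1.02, 0.88 and 0.54 with it. Other genes that led when that library was left out were Prelp, a leucine-rich matrix proteoglycan, with 88.3, 107 and 60.3 TPM on the low-fat and 334, 376 and 136 TPM on the high-fat diet, Ehd2, a caveolar ATPase, with 83.3, 91.8 and 82.2 TPM on the low-fat and 181, 213 and 109 TPM on the high-fat diet, and Palmd, a paralemmin family gene, with 49.3, 70.4 and 61.5 TPM on the low-fat and 151, 224 and 64.9 TPM on the high-fat diet. For each of the 3 the high-fat library nearest to the low-fat range, or within it for Palmd, was again Null_HFD 3.

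Triglyceride synthesis and lipolysis genes had a median of 0.04 with Null_HFD 3 and 0.40 without it (9 and 12 of 18 higher), and of -0.13 without Null_HFD 2. The median of 20 fatty acid oxidation genes was -0.17 with all 6 null libraries, 0.15 without Null_HFD 3, -0.22 without Null_HFD 2 and 0.16 without Null_LFD 1. Their member Acot1, an acyl-CoA thioesterase, measured 69.9, 58.8 and 60.9 TPM on the low-fat and 31.5, 35.4 and 6.49 TPM on the high-fat diet (-1.63, SE 0.53), and its difference was -0.90 without Null_HFD 3. The median of 15 thermogenic genes was -0.40 with Null_HFD 3 and 0.16 without it. Cidea, a lipid droplet protein of thermogenic fat, ranged widely within each diet at 259, 61.7 and 110.0 TPM on the low-fat and 135, 42.6 and 11.1 TPM on the high-fat diet.

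**Figure D4:**
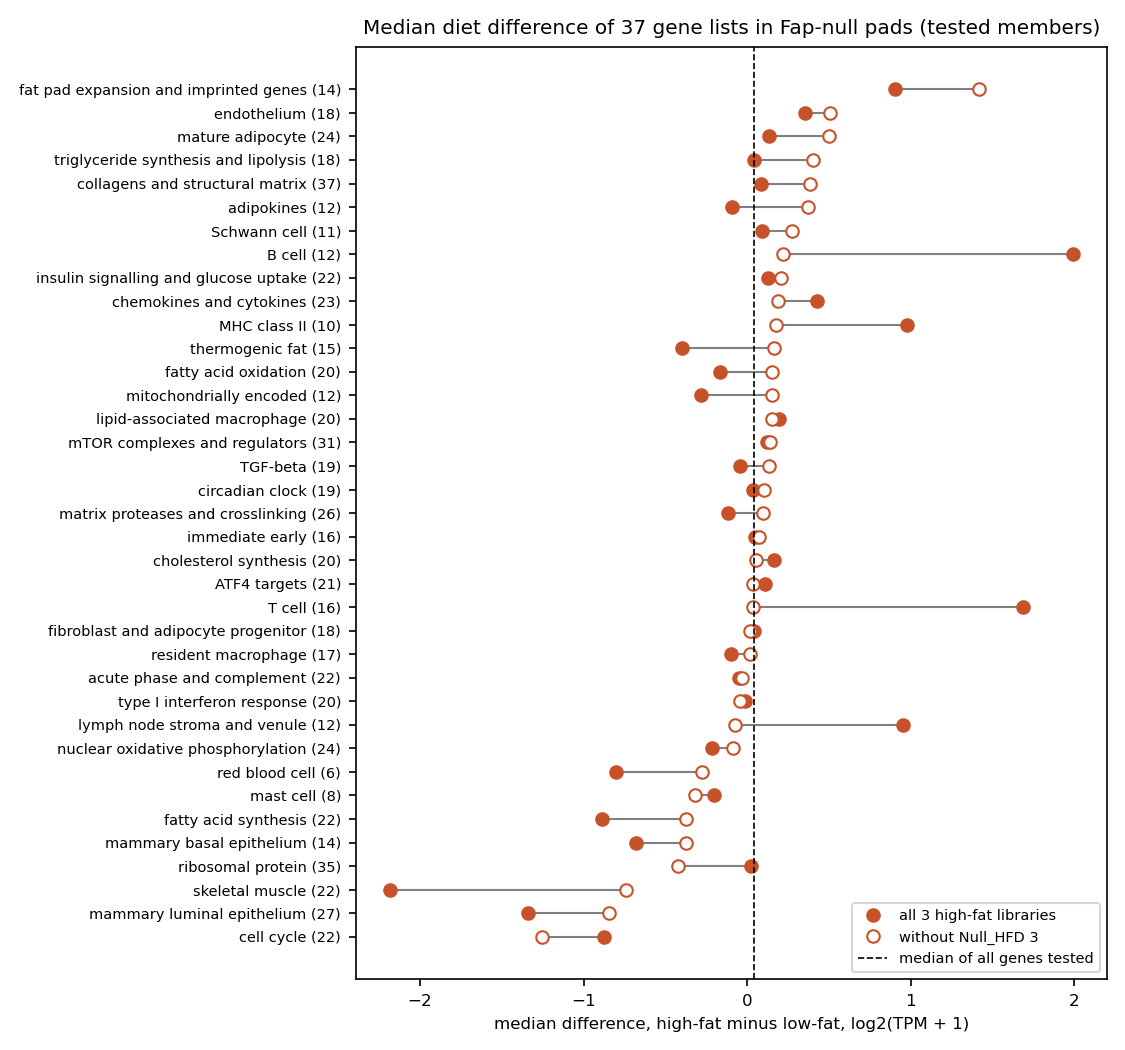
Median difference between the diets, high-fat minus low-fat, in log2(TPM + 1), over the tested members of each of 37 gene lists in Fap-null pads, with all 3 high-fat libraries (filled) and without Null_HFD 3 (open). B cell genes move from 1.99 to 0.22 and skeletal muscle genes from -2.18 to -0.74, while fat pad expansion genes lie at 0.90 and 1.42.

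Several of the leading lower genes are known from epithelia. Lsr, a lipoprotein receptor and component of tricellular junctions, measured 11.3, 13.7 and 14 TPM on the low-fat and 4.13, 3.62 and 2.47 TPM on the high-fat diet, a ratio of 0.263 between the means (difference -1.68, SE 0.27, adjusted p = 0.372), and its difference without Null_HFD 3 was -1.52. Car2, a carbonic anhydrase, measured 23.6, 39.1 and 39.8 TPM on the low-fat and 11.9, 8.91 and 16 TPM on the high-fat diet (difference -1.41, SE 0.28, adjusted p = 0.662), and Crabp2, which carries retinoic acid to its receptor, 12.2, 23.2 and 15 TPM on the low-fat and 4.71, 5.05 and 1.29 TPM on the high-fat diet. Galnt3, which starts mucin-type glycosylation, measured 14.1, 24.8 and 31 TPM on the low-fat and 6.69, 5.79 and 1.18 TPM on the high-fat diet, and Gabrp, the pi subunit of a GABA receptor found in mammary epithelium, 5.48, 11.3 and 6.08 TPM on the low-fat and 2.84, 1.7 and 1.73 TPM on the high-fat diet. Igsf5, a junctional adhesion protein, measured 8.73, 11.3 and 7.07 TPM on the low-fat and 3.29, 3.81 and 1.4 TPM on the high-fat diet, and Dusp23, a phosphatase, 39.5, 25.2 and 22.7 TPM on the low-fat and 6.84, 12.4 and 9.91 TPM on the high-fat diet. In all of these the highest high-fat pad lay below the lowest low-fat pad. Rassf6, Pof1b and Macc1 complete the list, with differences of -1.49, -1.46 and -1.39.

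Mammary luminal markers lay lower as well. Epcam, an epithelial adhesion molecule, measured 106, 174 and 175 TPM on the low-fat and 63.3, 75.9 and 22.6 TPM on the high-fat diet (difference -1.61, SE 0.46, adjusted p = 0.664), and Cdh1, which encodes E-cadherin, 28, 50.6 and 48.9 TPM on the low-fat and 15.4, 23.2 and 8.35 TPM on the high-fat diet (-1.44, SE 0.42). Csn3, the gene of kappa-casein, measured 1306, 1059 and 358 TPM on the low-fat and 353, 137 and 124 TPM on the high-fat diet (-2.12, SE 0.62), with Null_LFD 3 just above the highest high-fat pad. All 27 luminal markers lay lower (45.2% of all genes), 8 did not overlap (4.52%) and 13 had an unadjusted p under 0.05 (3.29%), with a median of -1.34. Without Null_HFD 3, 26 lay lower (47%), 8 did not overlap (8.81%), 8 had an unadjusted p under 0.05 (2.17%) and the median was -0.85. The summed luminal level was 8605, 7853 and 2881 TPM on the low-fat and 2777, 1628 and 572 TPM on the high-fat diet, so Null_LFD 3 and Null_HFD 1 lay close together. Milk protein genes varied most. Csn2, which encodes beta-casein, measured 717, 594 and 89 TPM on the low-fat and 152, 36.2 and 0 TPM on the high-fat diet, and Lalba, which encodes alpha-lactalbumin, 293, 259.5 and 0.622 TPM on the low-fat and 68.6, 8.89 and 15.1 TPM on the high-fat diet. In both, Null_LFD 3 lay below Null_HFD 1.

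Of 14 basal markers 12 lay lower (45.2% of all genes), 3 did not overlap (4.52%) and the median was -0.68 (-0.37 without Null_HFD 3 and -0.40 without Null_LFD 3). Trp63, a transcription factor of basal epithelium, measured 16.5, 21.5 and 23.2 TPM on the low-fat and 10.7, 6.52 and 1.9 TPM on the high-fat diet (difference -1.74, SE 0.46, adjusted p = 0.664), and Krt14, a basal keratin, 28.6, 46.9 and 51.5 TPM on the low-fat and 21.3, 32.9 and 7.6 TPM on the high-fat diet, with overlapping groups. Skeletal muscle markers also lay lower, 21 of 22 of them (45.2% of all genes), with a median of -2.18 and -0.74 without Null_HFD 3. Of the 22, 3 did not overlap (4.52% of all genes), Mb and Myh2 among them. The summed muscle level was 14307, 11150 and 5077 TPM on the low-fat and 4290, 7580 and 251 TPM on the high-fat diet. Null_HFD 2 thus lay above Null_LFD 3. Mb, which encodes myoglobin, measured 127, 92 and 33.3 TPM on the low-fat and 28.9, 30.8 and 1.23 TPM on the high-fat diet. Myh2, a fast myosin heavy chain, measured 49.8, 34.8 and 26.7 TPM on the low-fat and 15.7, 17.4 and 0.524 TPM on the high-fat diet, nearly absent from Null_HFD 3.

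Genes of insulin signalling and of mTOR control held small differences. The title of the series names mTOR signalling among its questions. Foxo1, a transcription factor that insulin holds out of the nucleus, measured 12, 12.4 and 10.3 TPM on the low-fat and 21.5, 16.7 and 23.5 TPM on the high-fat diet (difference 0.77, SE 0.21, adjusted p = 0.664), and Grb14, an adapter that inhibits the insulin receptor, 18.1, 22.9 and 16.7 TPM on the low-fat and 30.3, 41.7 and 36.4 TPM on the high-fat diet (difference 0.88, SE 0.25, adjusted p = 0.664). Both groups were free of overlap, as was that of Gsk3b, a glycogen synthase kinase, which differed by 0.35. Of 22 genes of the list, 15 lay higher (54.8% of all genes), 3 did not overlap (6.75%) and the median was 0.13, against 0.20 without Null_HFD 3 and 0.03 without Null_HFD 2. Among 31 mTOR complex and regulator genes 21 lay higher, 5 did not overlap (6.75% of all genes) and the median was 0.12 (0.14 without Null_HFD 3 and 0.03 without Null_HFD 2). Gatsl3, the older symbol of the arginine sensor Castor1, measured 4.62, 3.22 and 2.8 TPM on the low-fat and 5.6, 6.71 and 9.97 TPM on the high-fat diet (difference 0.88, SE 0.28, adjusted p = 0.668), and Sesn2, a leucine sensor that restrains mTOR complex 1, 7.81, 4.72 and 2.36 TPM on the low-fat and 10.6, 13.4 and 7.84 TPM on the high-fat diet (difference 1.04, SE 0.39, adjusted p = 0.68). Rptor, the scaffold of that complex, measured 16.5, 21.6 and 19.3 TPM on the low-fat and 27.9, 23.6 and 26 TPM on the high-fat diet (0.42, SE 0.20). Rragd, a Rag GTPase that recruits the complex to lysosomes, lay lower at 13.6, 12.4 and 5.5 TPM on the low-fat and 4.49, 6.67 and 4.25 TPM on the high-fat diet, with overlapping groups. Among targets of the stress factor ATF4, 16 of 21 lay higher with a median of 0.11. Without Null_HFD 3, 12 of 21 lay higher (53% of all genes) with a median of 0.04, and without Null_HFD 2 the median was 0.01. Their member Ddit3, which encodes CHOP, measured 22.8, 23.3 and 18.6 TPM on the low-fat and 33.4, 33.6 and 36 TPM on the high-fat diet (difference 0.65, SE 0.18, adjusted p = 0.664). The RNA levels do not measure the activity of the kinase.

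Matrix genes as a list lay near the background of all genes with all 3 high-fat libraries, and most endothelial genes lay higher. Sparc, a collagen-binding matrix protein, measured 665, 1081 and 1067 TPM on the low-fat and 1999, 1813 and 1131 TPM on the high-fat diet (difference 0.81, SE 0.31, adjusted p = 0.68), and Col4a1, a basement membrane collagen, 168, 238 and 261 TPM on the low-fat and 444, 408 and 231 TPM on the high-fat diet (0.67, SE 0.28). Bgn, the proteoglycan biglycan, measured 73.7, 99.1 and 91.9 TPM on the low-fat and 111, 135 and 125 TPM on the high-fat diet, and Nid2, the basement membrane linker nidogen 2, 9.99, 15.3 and 12.2 TPM on the low-fat and 19.3, 24.7 and 15.6 TPM on the high-fat diet. Of 37 collagen and structural matrix genes 20 lay higher (54.8% of all genes), 3 did not overlap (6.75%) and the median was 0.08. Without Null_HFD 3, 28 lay higher (53%), 16 did not overlap (14.3%) and the median was 0.38, and without Null_HFD 2 it was -0.06. Fn1, which encodes fibronectin, had overlapping groups at 219, 402 and 599 TPM on the low-fat and 233, 253 and 181 TPM on the high-fat diet. Of 26 matrix protease and crosslinking genes 10 lay higher and 16 lower, with a median of -0.12, which was 0.10 without Null_HFD 3 and 0.16 without Null_LFD 3. Their member with the smallest p, Adamts5, an aggrecan-cleaving protease, measured 25.2, 58.8 and 33.2 TPM on the low-fat and 69.9, 141 and 65.4 TPM on the high-fat diet (difference 1.21, SE 0.38, adjusted p = 0.668). Of 18 endothelial genes 15 lay higher (54.8% of all genes), and 18 without Null_HFD 3 (53%). The medians were 0.35 and 0.51, and 0.12 without Null_HFD 2. Their summed level was 921, 946 and 705 TPM on the low-fat and 999, 1390 and 815 TPM on the high-fat diet, so the groups overlapped. Plvap, a protein of fenestrated capillaries, measured 22.9, 22.6 and 17 TPM on the low-fat and 27.7, 44.6 and 56.4 TPM on the high-fat diet. Null_HFD 3 was the highest for this gene, unlike for the sum. Tgfb1, which encodes transforming growth factor beta 1, measured 14.1, 12.8 and 12.5 TPM on the low-fat and 18.8, 18.4 and 25.3 TPM on the high-fat diet, and its induced matrix protein Tgfbi 41.6, 46.3 and 38.8 TPM on the low-fat and 53.1, 61.6 and 108 TPM on the high-fat diet. The groups of both stood apart, while the median of 19 genes of that pathway was -0.04.

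Macrophage and complement genes had medians near that of all genes. Markers of lipid-associated macrophages had a median of 0.19 (13 of 20 higher) and those of resident macrophages -0.10 (6 of 17 higher). Mmp12, a macrophage elastase, measured 17.4, 15.3 and 9.35 TPM on the low-fat and 17.9, 59.1 and 35 TPM on the high-fat diet (difference 1.24, SE 0.39, adjusted p = 0.668), with Null_HFD 1 near the highest low-fat pad. Lgals3, which encodes galectin 3, measured 59.8, 65.7 and 71.3 TPM on the low-fat and 64, 209 and 211 TPM on the high-fat diet, and here Null_HFD 1 lay among the low-fat pads. Hp, which encodes haptoglobin, measured 159, 128 and 138 TPM on the low-fat and 224, 489 and 256 TPM on the high-fat diet (1.10, SE 0.41), C4b, complement component 4B, 104, 96.7 and 79.5 TPM on the low-fat and 141, 161 and 192 TPM on the high-fat diet, and Cd14, a co-receptor for bacterial lipopolysaccharide, 90.4, 108 and 33.4 TPM on the low-fat and 33.9, 32.3 and 19.2 TPM on the high-fat diet. The 3 members thus did not share a direction, and the groups of Cd14 overlapped. Cfb, described above, belongs to the same list and lay higher (difference 1.37, SE 0.27). Of 22 acute phase and complement genes 11 lay higher and 11 lower (54.8% and 45.2% of all genes), with a median of -0.05. The groups of 4 stood apart higher (6.75% of all genes) and of 1 lower (4.52%). Before adjustment, 3 lay higher (3.73%) and 3 lower (3.29%) with a limma p under 0.05.

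Lymphocyte genes lay higher on the high-fat diet mainly through 1 library. All 12 B cell genes and all 16 T cell genes lay higher, with medians of 1.99 and 1.69, and these were 0.22 and 0.03 without Null_HFD 3. Without it 10 of 12 B cell and 8 of 16 T cell genes lay higher (53% of all genes). The immunoglobulin gene Ighm measured 25.4, 49.8 and 56.8 TPM on the low-fat and 60.8, 140 and 753 TPM on the high-fat diet. Its groups stood apart, with a difference of 1.13 without Null_HFD 3. Cd79a, a subunit of the B cell receptor, measured 0.965, 0.63 and 0.249 TPM on the low-fat and 0.97, 1.9 and 153 TPM on the high-fat diet, and Cd3g, a subunit of the T cell receptor complex, 5.36, 4.92 and 3.08 TPM on the low-fat and 7.93, 4.08 and 255 TPM on the high-fat diet. The 10 MHC class II genes went from 0.98 to 0.18, and ribosomal protein genes from 0.03 to -0.42, where 0 of 35 lay higher. Ccl21a, a chemokine of lymph node stroma and lymphatic vessels, measured 1.17, 1.23 and 1.31 TPM on the low-fat and 13.3, 15.5 and 748 TPM on the high-fat diet. It also stood above the low-fat pads in Null_HFD 1 and 2, with a difference of 2.78 from these alone. Ccl19, its partner ligand for the receptor CCR7, measured 0, 0.872 and 1.26 TPM on the low-fat and 1.14, 1.05 and 473 TPM on the high-fat diet and did not. Cell cycle genes lay lower in 22 of 22 cases with a median of -0.87. That rested on Null_LFD 3, without which the median was 0.05, and Ccnb2, a mitotic cyclin, measured 1.35, 6.84 and 33.2 TPM on the low-fat and 1.21, 1.33 and 4.77 TPM on the high-fat diet.

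The diet difference was set against that in wild-type pads, where 0 of 16211 genes passed in limma. In these pads the difference was above 0 for 67% of genes and below 0 for 33%, and 909 genes lay under an unadjusted p of 0.05 (5.61%). The 2 contrasts share no library. The interaction, which asks whether the diet difference differs between the genotypes, called 0 genes (0%), and 677 had an unadjusted p under 0.05 (4.18%). Mest measured 17.2 and 20.7 TPM on the low-fat and 19.7 and 8.66 TPM on the high-fat diet in wild-type pads, a difference of -0.49, so no wild-type library reached the lowest null high-fat pad (interaction 3.03, SE 0.64, adjusted p = 0.908). Lep measured 387 and 507 TPM on the low-fat and 277 and 865 TPM on the high-fat diet (interaction 2.12, SE 0.76, adjusted p = 1). Lsr measured 7.95 and 4.58 TPM on the low-fat and 8.49 and 9.06 TPM on the high-fat diet (interaction -2.15, SE 0.42, adjusted p = 0.881), and Dusp23 20.2 and 14.6 TPM on the low-fat and 46.9 and 38.3 TPM on the high-fat diet, higher on the high-fat diet in wild-type and lower in null pads (interaction -2.74, SE 0.44, adjusted p = 0.493). None of these interactions passed.

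**Figure D5:**
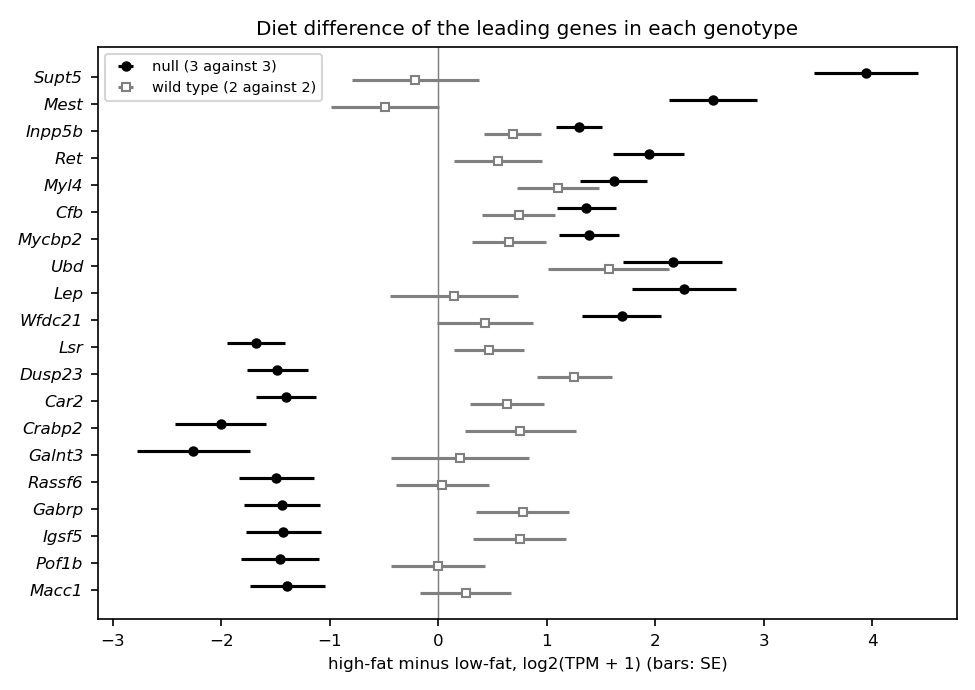
Difference between the diets, high-fat minus low-fat, in log2(TPM + 1) with its standard error, of the 20 leading genes in null (filled circles, 3 against 3 libraries) and wild-type pads (open squares, 2 against 2). The genes were chosen for their difference in null pads. Mest lies at 2.54 and -0.49, and Dusp23 at -1.48 and 1.26.

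By list, fatty acid synthesis lay lower in both genotypes, with medians of -0.89 in null and -1.29 in wild-type pads (20 of 22 lower in each). The median interaction was -0.03. Without Null_HFD 3 the null median was -0.37, with 17 of 22 lower. Fasn measured 3006 and 581 TPM on the low-fat and 741 and 72.5 TPM on the high-fat diet in wild-type pads, where the 2 libraries of each diet lay far apart. Cholesterol synthesis genes lay lower in wild-type pads (18 of 20, median -0.99) and not in null pads (6 of 20, and 9 of 20 without Null_HFD 3). The median interaction was 1.00, against -0.13 over all genes, and 6 of 20 members had an unadjusted limma interaction p under 0.05 (4.18% of all genes). Luminal markers lay lower in 27 of 27 cases in null pads and in 8 of 27 in wild-type pads. Their median interaction was -1.73 (-0.13 over all genes), with 13 of 27 members under an unadjusted limma p of 0.05 (4.18% of all genes). The null median of these markers was -1.34, and -0.85 without Null_HFD 3. Their summed level in wild-type pads was 2281 and 949 TPM on the low-fat and 3276 and 2818 TPM on the high-fat diet. WT_LFD 2 thus lay well below the other wild-type pads. For Csn3 the values in wild-type pads were 223 and 63.1 TPM on the low-fat and 497 and 391 TPM on the high-fat diet, and its interaction did not pass (limma adjusted p = 0.964). The interactions given here include Null_HFD 3, and WT_HFD 2 is itself rich in lymph node transcripts. The part of either library, or of epithelial content, in these interactions was not tested.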

How the data were processed

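Total RNA of frozen inguinal fat pads was sequenced after ribosomal RNA depletion with a stranded kit, per the labels' protocols. The authors deposited 1 value per gene symbol and library on a log2 scale, read here as log2(TPM + 1), because the values start at 0 and, taken back to TPM, give library totals between 946188 and 954515. The submitters' processing notes name kallisto, limma and GRCm38, with neither version nor role. Since TPM carries no read numbers, depth is unknown. The 1 row without a gene name took between 0.00544% and 0.0108% of a library's TPM and was left out.

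Columns were matched to samples by name, and groups come from the titles. The tested genes, 16211 in all, reached 1 TPM in 2 or more of the 6 null libraries, 14052 of them protein coding in GENCODE M21. The log2(TPM + 1) values of all 10 libraries were fitted as 4 group means with limma (3.58.1, R 4.3.3), with empirical Bayes variances that follow the mean and 6 residual degrees of freedom. All limma tests were two-sided with Benjamini-Hochberg adjustment over every tested gene, and calls were made at 0.05. Differences on this scale understate fold changes of low genes. The p values set each difference against 1 spread per gene, pooled within the 4 groups, wild-type pads included. They do not allow for a wider spread in 1 group. The procedure was tested on simulated data.

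The comparison and the 37 gene lists (733 entries, 731 present, 705 tested) were chosen with earlier results of these data known. Leading genes are the 10 of each direction with the smallest p among genes whose groups do not overlap and whose mean is at least 5 TPM in a group, passing over predicted genes and pseudogenes, with and without Null_HFD 3. Up to 4 members of each list by smallest p and Fap were named as well, and the text gives a part of them. List members outside that rule (Acly, Acss2, Adipoq, Bmp3, Cdkn1c, Csn2, Fads2, Fn1, Igf2, Lalba, Me1, Mlxipl, Nnat, Peg3, Retn, Scd1, Slc25a1, Srebf1 and Tkt) and the pseudogenes were chosen after their values were seen. Alternatives covered the libraries in the fit, pseudocount, filter, scaling, variance model, sample weights and replicate number. Promoter sequences come from RefSeq (GRCm38.p6). Some items are not reported here.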

Additional observations from a re-analysis of the deposited data

How the results depend on the processing

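The counts of calls moved with the settings. For genes called higher, with 0 as reported, sample weights gave 1 (Gm13433), the replicate block 1 (Supt5), and leaving out 1 null library 0 to 2. For genes called lower, with 1 as reported, the fit on the 6 null libraries gave 3, the fit without both lymph node-rich libraries 2 and the replicate block 2. Pseudocounts of 0.1 and 5, no filter on low values, protein-coding genes only (chosen after seeing the data) and leaving out any 1 null library each gave 0. The interaction gave 0 to 1 when 1 null library was left out, the 1 without Null_HFD 2. The cause was not tested. The deviations of same-numbered low-fat and high-fat libraries from their group means correlated at 0.158, -0.0273 and 0.105. The pairs numbered 1 and 3 lay above the highest different-numbered value, 0.0488, while Null_LFD 2 and Null_HFD 2 did not correlate best with each other. These values cannot decide whether replicate numbers pair the libraries, because deviations from a mean of 3 libraries depend on each other.

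Before adjustment the split of higher against lower genes moved from 604 and 533 to 548 and 680 with median-of-ratios scaling, to 850 and 528 with sample weights and to 876 and 352 without Null_HFD 3. Depth is unknown, so counting error could not be judged. Differences of genes named in the text that turned sign, none of them called, were as follows. With sample weights they were 0.23 for Adipoq, 0.44 for Retn, 0.15 for Srebf1 and 0.45 for Mlxipl. Mlxipl was at 0.0102 with a pseudocount of 5. Without both lymph node-rich libraries they were 0.38 for Adipoq, 0.40 for Retn, 0.28 for Srebf1, 0.64 for Mlxipl, -1.06 for Rps13 and -0.18 for Tyrobp. When any 1 null library was left out they ranged from -0.64 to 0.38 for Adipoq, -0.40 to 0.40 for Retn, -0.51 to 0.28 for Srebf1, -0.45 to 0.64 for Mlxipl, -3.63 to 0.12 for Lalba, -1.06 to 2.23 for Rps13 and -0.24 to 2.81 for Tyrobp. The text gives no direction for these genes on their own.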

Other observations

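Grip2, Col4a3 and C2cd4c lay below every low-fat pad in Null_HFD 1 and 2 and within or above the low-fat range in Null_HFD 3, while Tor1aip1 lay below it in all 3 high-fat pads. Grip2, a scaffold protein of glutamate receptors, measured 7161, 5962 and 6448 TPM on the low-fat and 349, 1094 and 6331 TPM on the high-fat diet, and 2843 and 6428 TPM on the low-fat and 11970.5 and 14333 TPM on the high-fat diet in wild-type pads. In the low-fat null pads these values lay above those of Adipoq. Whether they come from Grip2 transcript was not tested, so they are uncertain. Col4a3, a basement membrane collagen chain, measured 16.2, 24.7 and 22.8 TPM on the low-fat and 1.41, 4.2 and 43 TPM on the high-fat diet, and 9.46 and 22.6 TPM on the low-fat and 48.2 and 54.9 TPM on the high-fat diet in wild-type pads. C2cd4c, a C2 domain protein, measured 5.79, 4.89 and 6.41 TPM on the low-fat and 0.169, 1.09 and 6.75 TPM on the high-fat diet, and 2.26 and 3.65 TPM on the low-fat and 9.44 and 12.4 TPM on the high-fat diet. Tor1aip1, a protein of the inner nuclear membrane, measured 195, 186 and 218 TPM on the low-fat and 66.3, 114 and 151 TPM on the high-fat diet, and 109 and 121 TPM on the low-fat and 378 and 495 TPM on the high-fat diet. All 4 therefore lay higher on the high-fat diet in wild-type pads. Their interactions of -3.89, -3.16, -2.93 and -2.83 did not pass (limma adjusted p from 0.493 to 1). They were named by smallest p without Null_HFD 3.

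Processed pseudogenes took most of the calls that appeared under single settings. Gm13433, on chromosome 2, was listed at 6.12, 13.5 and 29.5 TPM in the null high-fat libraries and at 0 in every other library. Rps12l1, on chromosome 7, measured 168, 293 and 193 TPM on the low-fat and 0.0447, 2.1 and 2.79 TPM on the high-fat diet, and 25.7 and 329 TPM on the low-fat and 1524 and 2544 TPM on the high-fat diet in wild-type pads. Rpl23a-ps3 was listed at 166, 0 and 116 TPM on the high-fat diet and at no more than 0.0001 TPM on the low-fat diet. Copies share reads, so these values are uncertain.

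Of 14052 protein-coding genes tested, 10 were listed at 0 in a null library and at 50 TPM or more in another. Rps13, a ribosomal protein gene that every cell uses, measured 0, 0 and 8.08 TPM on the low-fat and 0, 0 and 94.9 TPM on the high-fat diet, and Tyrobp, a signalling adapter of macrophages, 0, 5.66 and 48.4 TPM on the low-fat and 23.3, 0.535 and 95.5 TPM on the high-fat diet. These genes were chosen after their values were seen.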
